A study of Mus musculus with 4 samples.

Results

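The tumour suppressor gene Trp53, which encodes p53, and 9 genes that regulate p53 or are its classical direct targets were followed in mouse leukaemia stem cells. The 9 were Mdm2, Mdm4, Cdkn1a, Btg2, Ccng1, Sesn2, Trp53inp1, Phlda3 and Zmat3. The genes were chosen by name, as p53, its regulators and classical direct targets, and all 10 were found among the 16442 genes of the deposited table. The cells came from bone marrow of C57BL/6 mice with leukaemia and were profiled by ribosome footprinting, in which a nuclease leaves the mRNA stretches that ribosomes cover. There were 2 libraries labelled KO for Rreb1, a zinc finger transcription factor, and 2 libraries labelled WT, each with matched input RNA. The genotype field of KO-labelled replicate 2 reads Rreb2-KO, and its title placed it with KO. The oncogene behind the leukaemia, the part of Rreb1 removed, the age of the mice and the number of animals behind a library are not stated by the labels.

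p53 is a transcription factor that is kept scarce by MDM2, a ubiquitin ligase that marks p53 for destruction, and is held inactive by MDM4, a relative of MDM2. DNA damage, oncogene activity or disturbed ribosome assembly releases p53, which then activates genes for cell-cycle arrest, stress defence and cell death, and also Mdm2 itself, closing a feedback loop. In blood-forming stem cells p53 is known for restraining division, and its loss is a known route to aggressive acute myeloid leukaemia. Much of its control lies in the stability of the protein, which neither footprints nor RNA measure.

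Footprints are given as RPKM, reads over coding length and over the sum of reads assigned to genes. Input RNA is also given as RPKM, but per kilobase of whole exon sequence. Translational efficiency (TE) is the authors' ratio of the footprint value to the RNA value, each with 1 added. Levels of different genes are compared within footprints or within RNA only. Differences are log2 values of KO-labelled minus WT libraries, with the standard error from limma.

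The footprint libraries were shallow, with 364087 and 274183 assigned reads in the KO-labelled libraries, against 878068 and 656249 in the WT libraries. A coding sequence of 1 kb with a single read therefore stood at 2.75 and 3.65 RPKM in the KO-labelled libraries, against 1.14 and 1.52 RPKM in the WT libraries. Input RNA depth was 17037493 to 18420466 reads in the KO-labelled libraries, against 18160885 to 19121998 in the WT libraries. Over the 6389 genes tested in footprints, the replicates correlated at 0.782 in the KO-labelled and 0.940 in the WT footprints, and at 0.996 and 0.997 in RNA. Rreb1 itself had 6.10 and 6.93 RPKM of RNA in the KO-labelled libraries, against 3.33 and 3.25 RPKM in the WT libraries (log2 difference 0.81 ± 0.09, limma adjusted p = 0.000283). Its footprints were 12.9 and 8.19 RPKM in the KO-labelled libraries, against 14.1 and 12.8 RPKM in the WT libraries. Rreb1 TE was 1.95 and 1.16 in the KO-labelled libraries, against 3.48 and 3.25 in the WT libraries (-1.16 ± 0.39, limma adjusted p = 0.343). The RNA of the targeted gene was thus higher in the libraries labelled KO, while its footprints overlapped and its lower TE did not pass the test. Whether reads fall in a deleted part of the gene cannot be read from values per gene. Every direction below is between libraries as labelled.

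Trp53 RNA was slightly higher in the KO-labelled libraries, and its footprints overlapped between the groups. RNA stood at 37.3 and 35.1 RPKM in the KO-labelled libraries, against 29.9 and 31.3 RPKM in the WT libraries. In such bulk samples, fewer cells of a type and less RNA per cell cannot be told apart. The RNA groups did not overlap, and the log2 difference was 0.24 ± 0.07 (limma adjusted p = 0.0205 over 6389 genes). The RNA call was lost without WT replicate 1 (limma adjusted p = 0.163) and without WT replicate 2 (limma adjusted p = 0.0871). Footprints of Trp53 were 45.0 and 77.6 RPKM in the KO-labelled libraries, against 59.6 and 67.3 RPKM in the WT libraries. The WT values lay between the KO-labelled ones, and the difference was -0.10 ± 0.38 (limma adjusted p = 0.903). Its TE was 1.20 and 2.18 in the KO-labelled libraries, against 1.96 and 2.12 in the WT libraries, a log2 difference of -0.34 ± 0.41 (limma adjusted p = 0.750).

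The negative regulators of p53 moved in opposite directions in RNA. Mdm2 RNA, of which p53 is the classical activator, was 12.6 and 11.8 RPKM in the KO-labelled libraries, against 16.7 and 18.2 RPKM in the WT libraries. Both KO-labelled values were below both WT values, and the log2 difference in Mdm2 RNA was -0.48 ± 0.08 (limma adjusted p = 0.00176). Mdm2 footprints scattered widely, at 7.49 and 34.8 RPKM in the KO-labelled libraries, against 26.4 and 18.7 RPKM in the WT libraries. These values rest on 4 and 14 reads in the KO-labelled libraries, against 34 and 18 reads in the WT libraries. KO-labelled replicate 1 was the lowest and KO-labelled replicate 2 the highest of the 4, so the footprint difference of -0.41 ± 0.76 did not pass the test (limma adjusted p = 0.805).

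Mdm4, whose product binds p53 and blocks its activating domain, had 9.76 and 10.4 RPKM of RNA in the KO-labelled libraries, against 7.28 and 7.38 RPKM in the WT libraries. In a fit over the 12194 genes whose RNA reached 1 RPKM in 2 or more libraries, Mdm4 RNA rose by 0.41 ± 0.08 (limma adjusted p = 0.00896). The call was lost without WT replicate 1 (limma adjusted p = 0.0683) or WT replicate 2 (limma adjusted p = 0.0662). Mdm4 footprints went the other way in level, at 12.6 and 7.18 RPKM in the KO-labelled libraries, against 17.2 and 10.0 RPKM in the WT libraries, with overlapping groups. Summed over libraries these were 10 reads in the KO-labelled and 33 in the WT group, a depth-scaled ratio of 0.728 (95% counting interval 0.320 to 1.51). Mdm4 lay below the footprint filter and was not tested there. It overlaps the annotated pseudogene Gm29257, whose RNA was 0.680 and 1.19 RPKM in the KO-labelled libraries, against 0.655 and 0.948 RPKM in the WT libraries.

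**Figure D1:**
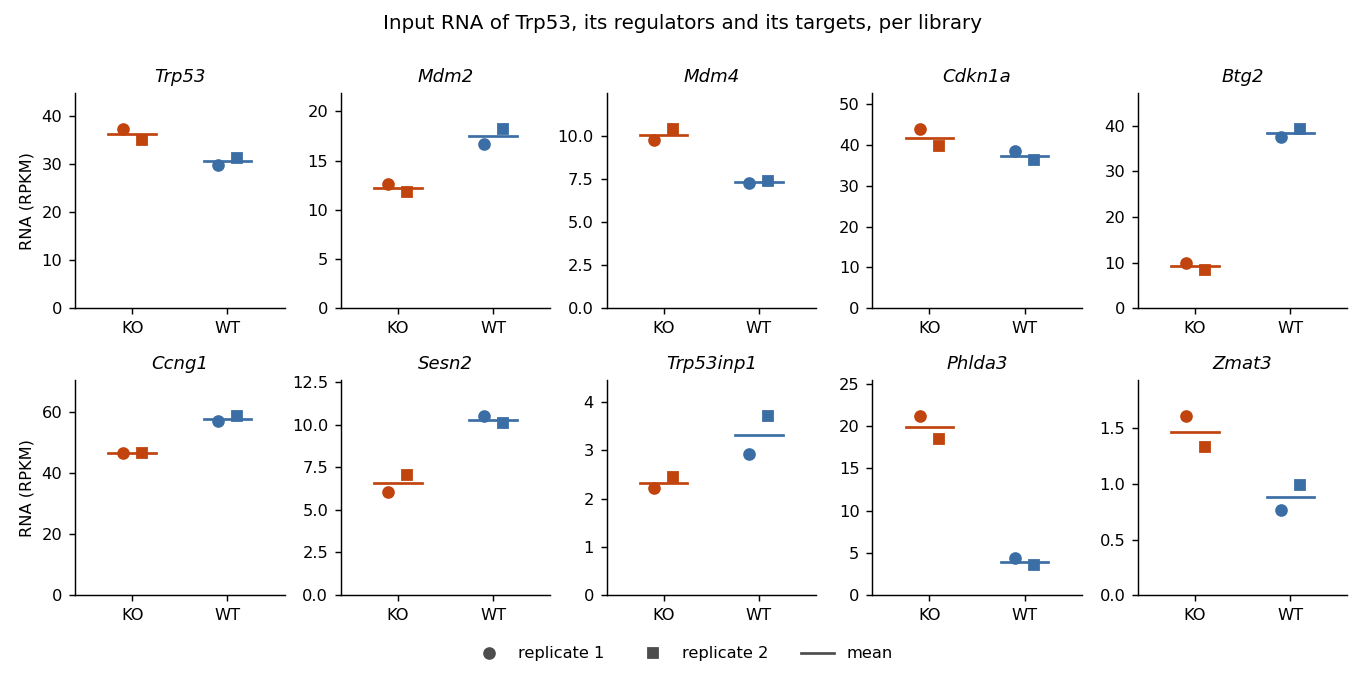
Input RNA of Trp53 and 9 regulators and direct targets in each library, in RPKM per exon length, 1 panel per gene with its own axis from 0, KO-labelled libraries left of WT libraries, points for libraries and a bar at each group's mean. Phlda3 stands 5.02-fold higher in the KO-labelled libraries and Btg2 at 0.24 of its WT level, while the other genes differ by less than 2-fold.

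The arrest genes did not move together. Cdkn1a encodes p21, the inhibitor of cyclin-dependent kinases through which p53 halts the cell cycle, and its RNA was 43.9 and 39.7 RPKM in the KO-labelled libraries, against 38.4 and 36.2 RPKM in the WT libraries. The groups did not overlap, but the difference of 0.16 ± 0.08 did not pass the test (limma adjusted p = 0.104), and it passed without KO-labelled replicate 2 (limma adjusted p = 0.0304). Cdkn1a footprints were 86.4 and 91.8 RPKM in the KO-labelled libraries, against 127 and 182 RPKM in the WT libraries. They come from 15 and 12 reads in the KO-labelled libraries, against 53 and 57 reads in the WT libraries. Both KO-labelled values were the lower ones, yet the footprint difference of -0.76 ± 0.31 missed the threshold (unadjusted limma p 0.0594, limma adjusted p = 0.298). The pooled ratio of Cdkn1a footprints was 0.590, with a counting interval of 0.372 to 0.906 that leaves out the spread between libraries. Cdkn1a TE was 1.94 and 2.28 in the KO-labelled libraries, against 3.24 and 4.92 in the WT libraries, and this difference of -0.92 ± 0.37 did not pass either (unadjusted limma p 0.0538, limma adjusted p = 0.387).

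Btg2, an antiproliferative protein that recruits the deadenylase machinery to mRNAs, had the steepest decrease of the 10 genes in RNA. Its RNA was 9.99 and 8.45 RPKM in the KO-labelled libraries, against 37.6 and 39.3 RPKM in the WT libraries. The log2 difference in Btg2 RNA was -1.95 ± 0.09 (limma adjusted p = 0.000148 over 12194 genes). With single libraries left out this RNA difference spanned -2.06 to -1.84. Footprints of Btg2 were 34.8 and 15.4 RPKM in the KO-labelled libraries, against 115 and 93.2 RPKM in the WT libraries. This is 6 and 2 reads in the KO-labelled libraries, against 48 and 29 reads in the WT libraries, with a counting interval of 0.104 to 0.517 for the depth-scaled ratio. The footprint groups lay well apart, and the difference of -2.11 ± 0.47 had an unadjusted limma p of 0.00744 and an adjusted p of 0.139. Btg2 met the footprint filter through the WT libraries only, where it was the higher, so this test is no support for the difference. The footprint difference was -2.68 without KO-labelled replicate 1 and -1.55 without KO-labelled replicate 2. The mean RNA of Btg2 was 0.24 of its WT mean and the mean footprint value was also 0.24 of its WT mean, and its TE overlapped at 3.25 and 1.73 in the KO-labelled libraries, against 3.01 and 2.34 in the WT libraries (-0.16 ± 0.44, limma adjusted p = 0.893).

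Ccng1, which encodes cyclin G1, a partner of protein phosphatase 2A that acts on MDM2, had slightly lower RNA in the KO-labelled libraries. Its RNA was 46.5 and 46.4 RPKM in the KO-labelled libraries, against 56.9 and 58.6 RPKM in the WT libraries (-0.31 ± 0.06, limma adjusted p = 0.00418). Without WT replicate 2 the adjusted p was 0.0633 by limma. Ccng1 footprints overlapped, at 106 and 78.6 RPKM in the KO-labelled libraries, against 73.6 and 79.5 RPKM in the WT libraries (0.25 ± 0.30, limma adjusted p = 0.699). With single libraries left out the footprint difference spanned 0.04 to 0.46. The lower RNA had no counterpart in footprints, and TE was 2.25 and 1.68 in the KO-labelled libraries, against 1.29 and 1.35 in the WT libraries. That TE difference of 0.56 ± 0.34 did not pass the test (limma adjusted p = 0.517).

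Sesn2, a sestrin that senses leucine and restrains the growth kinase complex mTORC1, had lower RNA in the KO-labelled libraries while its footprint levels were the higher ones. RNA was 6.05 and 7.06 RPKM in the KO-labelled libraries, against 10.5 and 10.1 RPKM in the WT libraries (-0.58 ± 0.09, limma adjusted p = 0.00137). Footprints of Sesn2 were 17.2 and 20.3 RPKM in the KO-labelled libraries, against 9.49 and 15.9 RPKM in the WT libraries, from 9 and 8 reads in the KO-labelled libraries, against 12 and 15 reads in the WT libraries. The groups just failed to overlap, and the footprint difference of 0.56 ± 0.40 did not pass the test (limma adjusted p = 0.516). Its TE was 2.58 and 2.64 in the KO-labelled libraries, against 0.914 and 1.52 in the WT libraries. The TE difference of 1.15 ± 0.39 had an unadjusted limma p of 0.0323 and an adjusted p of 0.346. The authors' deposited table lists 0.0222 for Sesn2, from a test that is not stated and that may not be one of TE. The authors' next lowest value among the 10 genes was 0.0743, for Cdkn1a. The share of all genes under 0.05 by the authors' values was not counted, so no result about the 10 genes is drawn from them.

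Trp53inp1, a stress protein that promotes p53 phosphorylation and autophagy, had little RNA in either group. Its RNA was 2.21 and 2.45 RPKM in the KO-labelled libraries, against 2.92 and 3.71 RPKM in the WT libraries (-0.37 ± 0.13, limma adjusted p = 0.0616). Footprints were 15.3 and 10.2 RPKM in the KO-labelled libraries, against 11.1 and 12.8 RPKM in the WT libraries, from at most 7 reads in a library. The footprints overlapped and were below the filter, so they were not tested.

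Phlda3 had the sharpest increase of the 10 genes. It encodes a protein with a pleckstrin homology domain that competes with the survival kinase AKT for membrane lipids. RNA was 21.2 and 18.5 RPKM in the KO-labelled libraries, against 4.36 and 3.53 RPKM in the WT libraries, a 5.02-fold higher mean. The log2 difference in Phlda3 RNA was 2.08 ± 0.12 (limma adjusted p = 0.000249 over 12194 genes), and the call held with each library left out in turn. Footprints were found in the KO-labelled libraries only, with 7 reads and 1 read, or 51.3 and 9.73 RPKM, against 0 reads in both WT libraries. A count of 0 allows up to 9.11 RPKM in WT replicate 1 and 12.2 RPKM in WT replicate 2, taking 3 reads as the limit. Pooled over libraries, Phlda3 footprints stood at 33.4 RPKM in the KO-labelled group, 6.41 times the limit of 5.21 RPKM for the WT group. This ratio leaves out the counting error of the 8 KO-labelled reads, so it is not a lower bound. The ratio rests on KO-labelled replicate 1, since without that library the KO-labelled group has 1 read.

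Zmat3, a zinc finger protein that binds RNA and regulates splicing, was the scarcest of the 10 genes. Its RNA was 1.61 and 1.33 RPKM in the KO-labelled libraries, against 0.764 and 0.992 RPKM in the WT libraries (0.40 ± 0.13, limma adjusted p = 0.0553). Zmat3 entered this RNA fit through the KO-labelled libraries only, since both WT values were under 1 RPKM. Footprints of Zmat3 were 1 read in each KO-labelled library, against 1 and 2 reads in the WT libraries, so no footprint difference was detectable at this depth. The gene overlaps an annotated long non-coding RNA, and the labels do not say whether strand was used in counting.

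**Figure D2:**
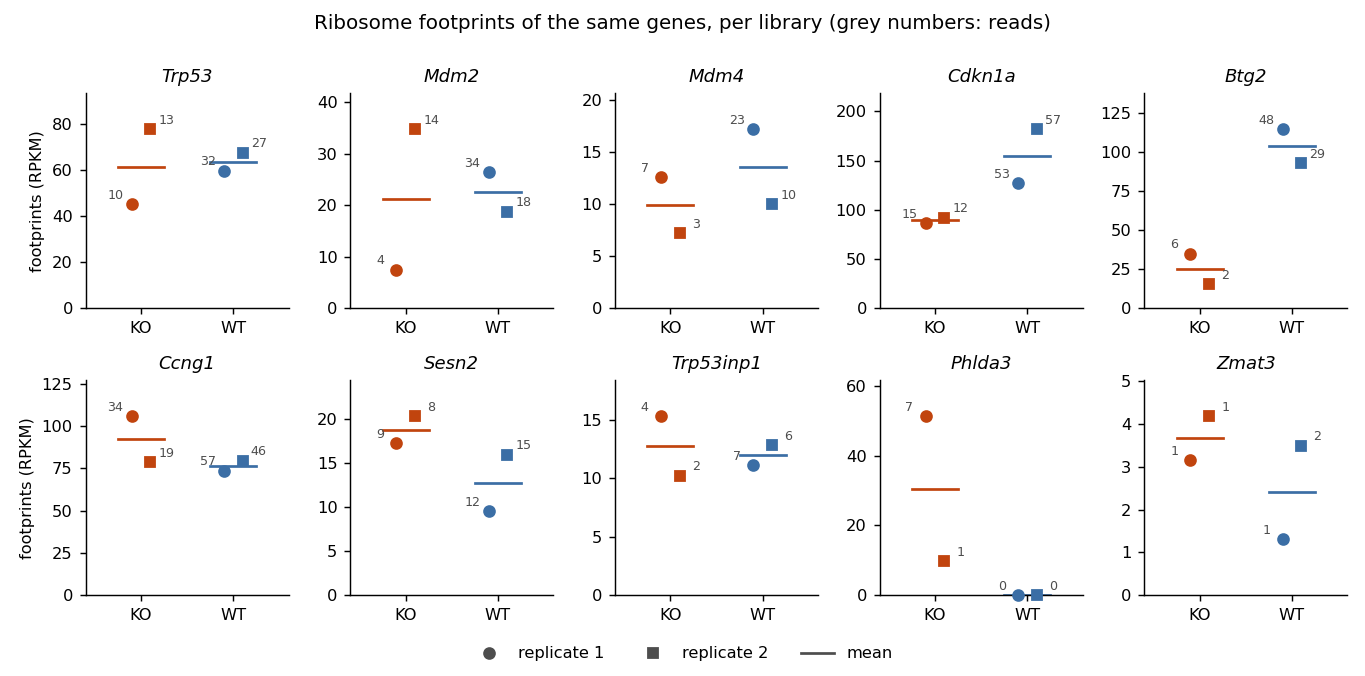
Footprints of Trp53 and 9 regulators and direct targets in each library, in RPKM per coding length, 1 panel per gene with its own axis from 0, KO-labelled libraries left of WT libraries, a bar at each group's mean and read counts beside the points. Btg2 and Cdkn1a are lower in both KO-labelled libraries, and Phlda3 has reads in the KO-labelled libraries only. Apart from Trp53, whose reads are known only up to a common factor, no value rests on more than 57 reads.

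Read against all genes, the RNA calls were not unusual in number. Of the 10 genes, 7 passed the test in RNA over 12194 genes, where 53.3% of all genes passed. Trp53, Mdm4 and Phlda3 were higher, where 32.2% of all genes were higher, and Mdm2, Btg2, Ccng1 and Sesn2 were lower, where 21.1% of all genes were lower. Cdkn1a, Trp53inp1 and Zmat3 did not pass, and Zmat3 met the RNA filter through the KO-labelled libraries only, where it was the higher. The RNA values of all 10 genes did not overlap between the groups, which held for 79.3% of all genes. Trp53, Mdm4, Cdkn1a, Phlda3 and Zmat3 were higher in this way, as were 46.9% of all genes, and the other 5 were lower, as were 32.4%. Their median RNA difference was -0.07, against 0.10 over all 12194 genes. With single libraries left out in the same fit, Btg2 and Phlda3 kept their calls each time. Mdm2 was lost without WT replicate 2 (limma adjusted p = 0.0570), and Sesn2 without WT replicate 1 (limma adjusted p = 0.0503). Ccng1 was lost without either WT replicate, and Trp53 was lost without KO-labelled replicate 1 or either WT replicate.

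In footprints 6 of the 10 genes had enough reads to be tested, that is, a CPM (reads over the library's sum, without regard to length) of 20 or more in 2 libraries. Those 6 were Trp53, Mdm2, Cdkn1a, Btg2, Ccng1 and Sesn2, and Btg2 met this minimum through the WT libraries only, where it was the higher. By limma 0 of the 6 passed, where 1.06% of 6389 genes passed, and by limma-voom on recovered reads 0 of 6 passed, where 1.13% of all genes passed. Btg2 was the 1 gene of the 6 with an unadjusted p under 0.05, which 18.2% of all genes had. The footprint groups did not overlap for 3 of the 6, Cdkn1a and Btg2 lower and Sesn2 higher, where 52.5% of all genes did not overlap, 20.5% higher and 32.1% lower. In RNA the same 6 genes gave 5 calls, Trp53 higher and Mdm2, Btg2, Ccng1 and Sesn2 lower, where 60.8% of the 6389 genes passed, 33.1% higher and 27.7% lower. The count of 68 genes past the threshold in footprints depended on single libraries, being 336 without KO-labelled replicate 1, 1097 without KO-labelled replicate 2 and 0 without either WT replicate.

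In TE 0 of the 6 tested genes passed by limma, where 0% of the 6389 genes passed. Sesn2 was the 1 gene with an unadjusted p under 0.05, which 13% of all genes had. TE did not overlap between the groups for 3 of the 6, Cdkn1a lower and Ccng1 and Sesn2 higher, where 48% of all genes did not overlap, 15.6% higher and 32.3% lower. The median TE difference of the 6 genes was -0.05, against -0.15 over all genes tested. Median differences in footprints and RNA of the 6 were -0.26 and -0.40, against -0.13 and 0.04 over all genes tested.

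**Figure D3:**
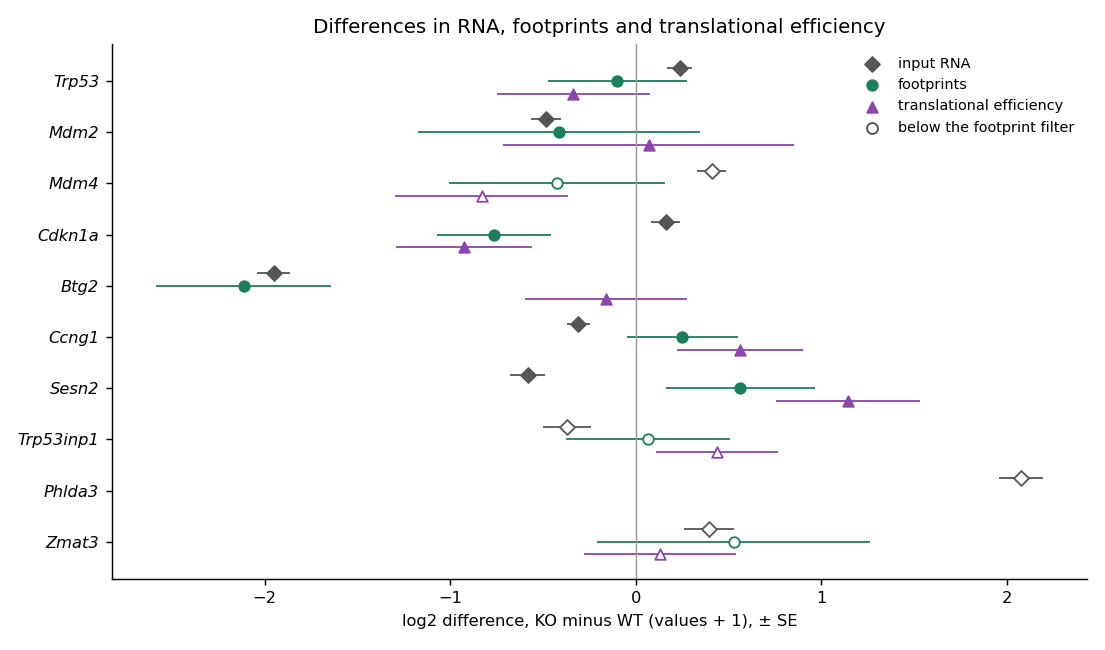
Log2 difference, KO-labelled minus WT, of input RNA, footprints and TE for Trp53 and 9 regulators and direct targets, with bars of 1 standard error from limma and open symbols for genes below the footprint filter. Phlda3 has an RNA point only, since its WT footprints were 0. RNA bars are short and footprint bars long, and Btg2 is the one gene with RNA and footprints both more than 1 log2 unit below 0.

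Ordered by mean RNA over the 4 libraries, Ccng1 was the most abundant at 52.1 RPKM, above 89.9% of the 12194 genes. Cdkn1a at 39.6 RPKM, Trp53 at 33.4 RPKM, Btg2 at 23.8 RPKM, Mdm2 at 14.8 RPKM, Phlda3 at 11.9 RPKM, Mdm4 at 8.69 RPKM and Sesn2 at 8.42 RPKM followed. Trp53inp1 at 2.82 RPKM and Zmat3 at 1.17 RPKM were the scarcest. The order differed between the groups. Phlda3 ranked above Mdm2 in the KO-labelled libraries, with a mean of 19.8 ± 1.90 RPKM (SD, n = 2), and below Sesn2 and Mdm4 in the WT libraries, with 3.95 ± 0.59 RPKM (SD, n = 2). Btg2 ranked below Mdm4 in the KO-labelled libraries, at 9.22 ± 1.09 RPKM (SD, n = 2), and next to Ccng1 in the WT libraries, at 38.4 ± 1.15 RPKM (SD, n = 2). Neighbours whose values overlapped were Mdm4 and Btg2 in the KO-labelled libraries, and Btg2 and Cdkn1a, and Phlda3 and Trp53inp1, in the WT libraries. In mean footprints the order was led by Cdkn1a at 122 RPKM, Ccng1 at 84.4 RPKM, Btg2 at 64.7 RPKM and Trp53 at 62.4 RPKM.

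The p53 binding site known from textbooks is a pair of like decamers, and the RefSeq promoter windows of these genes were searched for it, since they include genes selected as direct targets. Each window ran from 250 bases before to 50 bases after an annotated start (build GRCm38.p6), and both strands were scored for the best match to 2 adjoining decamers of the p53 consensus, 20 bases in all. Windows were found for 8 of the 10 genes, 10 windows in all, and not for Zmat3 and Trp53inp1. The 250 bases before the start are shown for Cdkn1a and Ccng1, which hold the closest matches, and for Btg2 and Phlda3, which carry the strongest RNA differences. Capitals mark the best match. The Cdkn1a stretch is chr17:29090729-29090978 on the plus strand, that of Ccng1 chr11:40755287-40755536 on the minus strand, that of Btg2 chr1:134079156-134079405 on the minus strand and that of Phlda3 chr1:135765835-135766084 on the plus strand.
Cdkn1a: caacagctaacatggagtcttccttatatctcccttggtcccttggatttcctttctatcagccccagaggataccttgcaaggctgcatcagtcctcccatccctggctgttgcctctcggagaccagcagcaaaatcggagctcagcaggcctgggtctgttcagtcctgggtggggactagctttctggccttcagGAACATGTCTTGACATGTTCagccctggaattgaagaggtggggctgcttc
Ccng1: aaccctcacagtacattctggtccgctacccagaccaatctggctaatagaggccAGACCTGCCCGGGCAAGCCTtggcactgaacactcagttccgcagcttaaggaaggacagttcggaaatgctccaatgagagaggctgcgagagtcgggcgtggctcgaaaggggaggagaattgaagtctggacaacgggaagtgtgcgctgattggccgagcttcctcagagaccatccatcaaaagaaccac
Btg2: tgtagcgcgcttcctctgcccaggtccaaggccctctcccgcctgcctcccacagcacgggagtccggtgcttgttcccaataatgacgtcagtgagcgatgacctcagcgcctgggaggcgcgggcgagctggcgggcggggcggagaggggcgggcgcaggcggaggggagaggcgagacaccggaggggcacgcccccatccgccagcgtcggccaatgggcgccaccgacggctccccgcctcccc
Phlda3: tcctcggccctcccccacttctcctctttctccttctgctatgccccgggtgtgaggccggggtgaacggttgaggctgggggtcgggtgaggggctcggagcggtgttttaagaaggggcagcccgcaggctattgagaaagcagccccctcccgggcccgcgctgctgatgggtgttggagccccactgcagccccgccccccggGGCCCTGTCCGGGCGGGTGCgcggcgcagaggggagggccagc
Cdkn1a matched the consensus at 19 of 20 bases, starting 51 bases before this start, and Ccng1 at 19 of 20 bases, starting 195 bases before its start. A match of 19 or more was found in 0.0883% of the 32851 windows of the same length. The best match near Btg2 had 16 of 20 bases and lay after the start, outside the bases shown, and 30.2% of windows match as well or better. Phlda3 had 15 of 20 bases, the median of all windows, and 76.6% of windows match as well or better. Trp53 and the closer of the Mdm4 windows had 17 of 20 bases, and Mdm2 and Sesn2 had 15. The window of the other annotated Cdkn1a start had 15 of 20 bases, which 76.6% of windows match or exceed, and no complete decamer. A complete single decamer was found in the windows of Cdkn1a (upstream start), Ccng1, Trp53 and Mdm2, 4 of 10 windows, against 8.36% of all windows. These matches describe letters in a short window, and sites in introns or farther upstream were not searched.

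Other targets of p53 lay in both directions in RNA, as did genes at large, and none passed in footprints or TE. Of 63 further targets listed, 56 were in the table and 49 had enough RNA to be tested. In RNA 18 of the 49 were higher, 13 were lower and 18 did not pass, where 32.2% of all 12194 genes were higher and 21.1% lower, with a median of 0.10. These counts include Perp, Cpt1c and Thbs1, each of which met the RNA filter only through the group where it was the higher. The counts of the lists below stand against the same shares and median. In footprints 27 were tested and 0 passed by limma or by limma-voom, where 1.06% and 1.13% of all genes passed. An unadjusted p under 0.05 was found for 6 by each tool, and for 18.2% of all genes by limma and 1137 of 6389 genes by limma-voom. In TE 0 of 27 passed by limma, with 1 at an unadjusted p under 0.05, which 13% of all genes had.

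Targets for arrest and repair numbered 21 in the RNA test, with 9 higher, 4 lower and 8 not passing, and a median difference of 0.08, against 0.10 over all genes. Xpc, which recognises DNA lesions for nucleotide excision repair, averaged 124 RPKM in the KO-labelled libraries and 47.9 RPKM in the WT libraries (log2 difference 1.35). Ckap2, a cytoskeleton-associated protein, averaged 16.7 RPKM in the KO-labelled libraries and 8.74 RPKM in the WT libraries (0.87), and Rps27l, a ribosomal protein paralogue, rose by 0.70. Tigar, a phosphatase that turns down glycolysis, fell by 0.39 in the fit over 6389 genes and did not pass in that over 12194.

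Cell death targets numbered 17, with 7 higher, 5 lower and 5 not passing, and a median of -0.01, against 0.10 over all genes. Among those higher, Perp met the RNA filter through the KO-labelled libraries only, so its call is no support for a difference. Bax, which forms pores in the mitochondrial outer membrane, averaged 265 RPKM in the KO-labelled libraries and 131 RPKM in the WT libraries (1.01). Pmaip1, the BH3-only protein NOXA, averaged 74.4 RPKM in the KO-labelled libraries and 148 RPKM in the WT libraries (-0.99), so these BCL2-family targets moved in opposite directions. Tnfrsf18, a receptor of the TNF receptor family, rose by 1.98, and Pidd1, the scaffold that activates caspase-2, rose by 0.74. Bbc3, which encodes the BH3-only protein PUMA and was chosen after its values were seen, had 6.77 and 6.44 RPKM of RNA in the KO-labelled libraries, against 7.78 and 5.86 RPKM in the WT libraries, and 0 footprint reads in all 4.

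Secreted and metabolic targets numbered 11, with 2 higher, 4 lower and 5 not passing, and a median of -0.16, against 0.10 over all genes. Among those higher, Cpt1c met the RNA filter through the KO-labelled libraries only, so its call is no support for a difference. Abhd4, a lipid hydrolase, rose by 1.43. Thbs1, the matrix protein thrombospondin 1, averaged 0.0863 RPKM in the KO-labelled libraries and 2.18 RPKM in the WT libraries (-1.55). Thbs1 RNA reached 1 RPKM in the WT libraries only, so its call in that fit is no support for this difference. Steap3, a ferrireductase of endosomes, fell by 0.51, and Prkab1, a regulatory subunit of AMPK, fell by 0.50.

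Among the genes that act on p53, 37 were listed and 33 were tested in RNA, with 13 higher, 3 lower and 17 not passing. Of all 12194 genes, 32.2% were higher and 21.1% lower, and the difference between the list and all genes was not tested. In footprints 25 were tested and 0 passed by limma or by limma-voom, where 1.06% and 1.13% of all genes passed. An unadjusted p under 0.05 was found for 1 by limma, where 18.2% of all genes had it. By limma-voom it was found for 3, where 1137 of 6389 genes had it. In TE 0 of 25 passed by limma, where 0% of the 6389 genes passed. An unadjusted p under 0.05 in TE was found for 3, and for 13% of all genes. The kinases and cofactors had 5 higher and 2 lower of 14, with a median of 0.18, against 32.2% higher, 21.1% lower and a median of 0.10 over all genes. Chek1, Trp53bp1 and Atm, which carry the DNA damage signal to p53, each rose by 0.49, and Prkdc, the catalytic subunit of DNA-dependent protein kinase, rose by 0.46.

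The genes for p53 turnover, ARF and nucleolar stress had 8 higher and 1 lower of 19, with a median of 0.36, against 32.2% higher, 21.1% lower and a median of 0.10 over all genes. Cdkn2a, the locus of p16 and of ARF, the inhibitor of MDM2, averaged 8.57 RPKM in the KO-labelled libraries and 1.60 RPKM in the WT libraries (1.88), and a value per gene cannot separate the pair of products. Npm1, the nucleolar protein that holds ARF, averaged 200.0 RPKM in the KO-labelled libraries and 119 RPKM in the WT libraries (0.74). Rpl26, a ribosomal protein, rose by 0.64, and Trim24, a ubiquitin ligase for p53, rose by 0.62 at under 2 RPKM in every library.

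**Figure D4:**
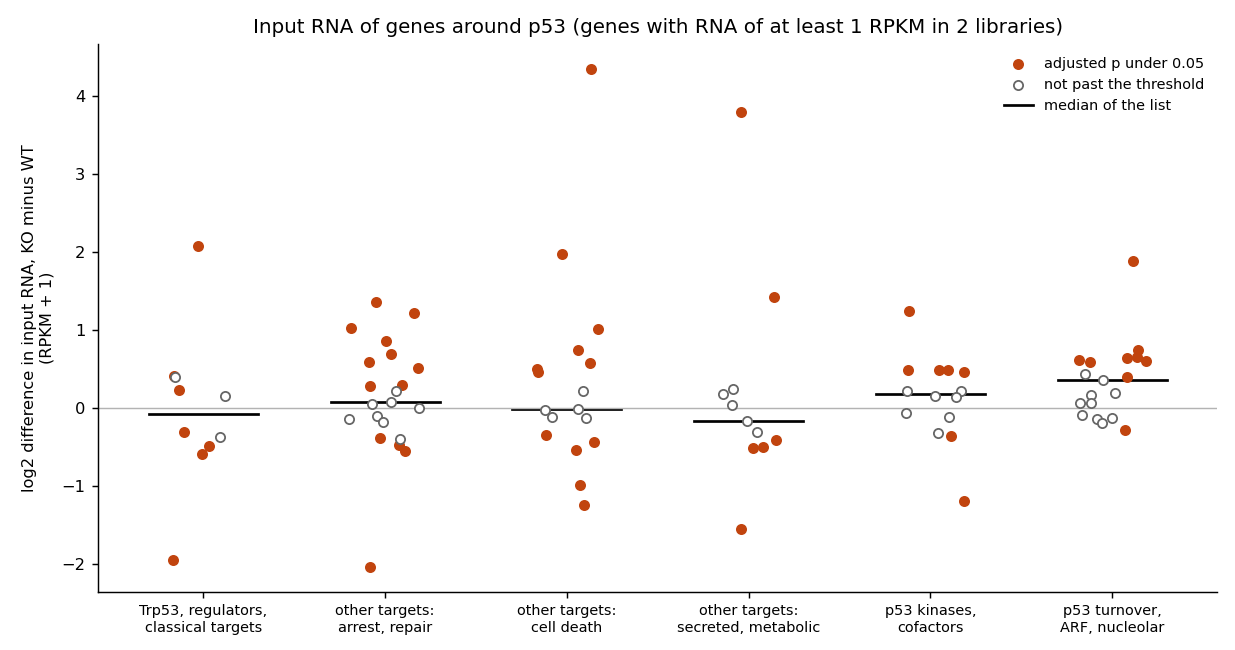
Log2 difference in input RNA, KO-labelled minus WT, of Trp53 with its 9 regulators and targets and of 5 lists of further targets and regulators, each point a gene whose RNA reached 1 RPKM in 2 or more libraries, filled where the limma adjusted p was under 0.05 and with a bar at the list's median. Points lie on both sides of 0 in each list, and the list of turnover, ARF and nucleolar genes has the highest median at 0.36.

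The genes whose pattern lay nearest to that of Trp53 were Cdk4, a kinase of the G1 phase, Dido1, a chromatin reader, and Slc39a10, a zinc importer. Nearness was the Euclidean distance over 8 log2 values, footprints and RNA in 4 libraries, each centred on the gene's own means. The distances were 0.0922, 0.143 and 0.155, against a median of 1.05 over 6388 genes. Cdk4 footprints were 118 and 201 RPKM in the KO-labelled libraries, against 155 and 178 RPKM in the WT libraries, with the same KO-labelled replicate high as for Trp53. With 4 libraries many genes can share such a pattern.

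Markers of other blood cells differed between the groups in the same libraries. Counts of markers below are of those whose groups did not overlap, which held for 79.3% of all 12194 genes in RNA, 46.9% higher and 32.4% lower. The marker counts also include genes short of 1 RPKM in 2 libraries, for which these shares are no matching background. That minimum was met by 7 of 9 mast cell, basophil and eosinophil, 6 of 10 erythroid and 3 of 8 T and NK cell markers. It was met by 2 of 5 megakaryocyte, 3 of 5 stromal and endothelial and 4 of 5 B and plasma cell markers. Mature myeloid markers summed to 10423 to 10817 RPKM of RNA in the KO-labelled libraries, against 20696 to 21421 RPKM in the WT libraries, with 7 of 10 lower and 2 higher. Elane led this sum, at 7205 and 6264 RPKM in the KO-labelled libraries, against 8691 and 8517 RPKM in the WT libraries. Mast cell, basophil and eosinophil markers summed to 500 to 517 RPKM in the KO-labelled libraries, against 34.2 to 35.9 RPKM in the WT libraries, with 8 of 9 higher and with Ms4a2 and Cma1 under 1 RPKM in all 4. Progenitor markers summed to 518 to 530 RPKM in the KO-labelled libraries, against 467 to 481 RPKM in the WT libraries, with 6 of 10 higher and 3 lower, none of them under 1 RPKM in every library. The erythroid sum was 430 to 523 RPKM in the KO-labelled libraries, against 81.6 to 90.1 RPKM in the WT libraries, with 7 of 10 higher and with Klf1, Epor and Car1 under 1 RPKM in all 4 libraries.

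The T and NK cell sum was 367 to 436 RPKM in the KO-labelled libraries, against 17.8 to 18.1 RPKM in the WT libraries, with 7 of 8 higher and Cd3d, Cd3e and Cd3g under 1 RPKM in all 4. Nkg7 made up most of this sum, at 426 and 356 RPKM in the KO-labelled libraries, against 15.0 and 14.6 RPKM in the WT libraries. Megakaryocyte markers summed to 23.6 to 25.5 RPKM in the KO-labelled libraries, against 1.99 to 2.55 RPKM in the WT libraries, with 3 of 5 higher and Gp9 and Ppbp under 1 RPKM in all 4. Stromal and endothelial markers summed to 73.3 to 80.3 RPKM in the KO-labelled libraries, against 12.1 to 12.4 RPKM in the WT libraries, with 4 of 5 higher, Pecam1 leading and Sparc and Cxcl12 under 1 RPKM in all 4. B and plasma cell markers summed to 29.0 to 31.8 RPKM in the KO-labelled libraries, against 43.0 to 44.7 RPKM in the WT libraries, with 3 of 5 higher, 1 lower and Igll1 under 1 RPKM in all 4. The part of cell composition in the differences of Btg2, Phlda3 and the other p53 genes was not tested.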

How the data were processed

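Ribosome footprints and input RNA were measured in 4 libraries, 2 labelled KO and 2 labelled WT. Per the labels' protocols, lysates were digested with micrococcal nuclease (10 µg/ml, 30 min), and fragments of 25 to 40 nucleotides were sequenced. CASAVA, HISAT2 2.1.0, featureCounts and DESeq2, and the human build hg38, are named in the submitters' processing notes without roles, although the table lists mouse genes. No annotation is named. In the deposited table the footprint columns fit RPKM per coding length plus 1. The deposited TE is the ratio of this value to an input RNA value in RPKM per exon length plus 1, so RNA was taken as footprints over TE, minus 1. These units were read from the values. Per the file headers the deposited p-value is adjusted; its test is not stated, and it is quoted only as the authors' value.

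Steps in the RPKM values gave back whole reads for 10536 of 10536 genes with footprints in at least 2 libraries and for 15935 of 15988 in input, within 0.002 reads. A gene's reads can be too small by a common factor, as for Trp53, which leaves ratios unchanged. Its CPM is then too small as well, so a CPM filter can leave out such a gene. Whole-read recovery allowed a count-based alternative (limma-voom), which called 72 genes in footprints. Counting intervals are 95% and cover counting error only. Footprints, RNA and TE were tested with limma 3.58.1 (R 4.3.3) on log2(value + 1) with an intensity trend, fitting group alone over all 4 libraries, two-sided, Benjamini-Hochberg adjusted, threshold 0.05. Fold changes on this scale understate those of low genes. Genes with a CPM of at least 20 in 2 libraries were tested, 6389 in all, and RNA also over 12194 genes with at least 1 RPKM in 2 libraries. The scripts were checked on simulated data.

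The members, the gene lists and the markers were chosen with earlier results of these data known. The value of 1 marker gene is not reported here. All 10 members are named. From each further list, genes passing in footprints or TE and up to 4 with the largest RNA difference among those passing over 6389 genes are named, and 3 genes by nearness to Trp53. Bbc3, and the genes outside this rule in the closing observations, were added after their values were seen. The labels do not say which animals the replicates came from, so the spread behind each p-value is that between these libraries and may be technical. Alternatives were other filters, pseudocounts, scalings, limma-voom, a replicate block and leaving out each library. Promoter sequences are from RefSeq (GRCm38.p6). Other computation used Python 3.11.15, SciPy 1.17.1 and pandas 2.3.3.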

Additional observations from a re-analysis of the deposited data

How the results depend on the processing

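The number of genes past the threshold in footprints, 68, was 0 with no filter on low genes, 120 with a CPM of at least 50, 110 with a pseudocount of 5, and 0 to 1097 with single libraries left out. Members past it numbered 0, and 0 to 1 with single libraries left out. In RNA the count of 3882 was 6286 with no filter, 2453 at a CPM of at least 50 and 6497 at an RNA of at least 1 RPKM. Of the 5 members passing in RNA, 1 passed at a CPM of at least 50, where 2 were tested, and 3 to 6 with single libraries left out. In TE the count of 0 was 1 at a CPM of at least 50, 1 with a pseudocount of 5 and 0 to 699 with single libraries left out. The sign of Trp53 in footprints turned with quantile normalization (0.0070, limma adjusted p = 0.993). With single libraries left out, footprint differences spanned -0.49 to 0.29 for Trp53, -1.45 to 0.62 for Mdm2, 0.038 to 0.46 for Ccng1 and 0.22 to 0.91 for Sesn2, and TE differences -0.77 to 0.095 for Trp53, -1.02 to 1.16 for Mdm2 and -0.61 to 0.29 for Btg2. The cause of these shifts was not tested.

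Replicate numbers are shared by the groups, but no label says that they pair libraries, and deviations of same-numbered libraries correlated at 0.0226 in footprints and -0.335 in RNA. With a replicate block, 32 genes passed in footprints and 3480 in RNA, and 4 members passed in RNA, Trp53 being lost (limma adjusted p = 0.0544). With the numbers crossed, an alternative chosen after seeing the data, 134 genes passed in footprints, 4395 in RNA and 2 in TE. In footprints 4 of the 10 members lay below the CPM filter and were not tested.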

Other observations

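Some of the widest RNA differences among genes around p53 lay outside the naming rule, because their footprints were too few to be tested, and they were chosen after their values were seen. Perp, a tetraspan membrane protein of p53-driven death, had 23.8 and 22.3 RPKM of RNA in the KO-labelled libraries, against 0.134 and 0.226 RPKM in the WT libraries (log2 difference 4.35). Perp met the RNA filter of 1 RPKM through the KO-labelled libraries only, so its RNA test is no support for this difference. Its footprints were 0 and 18.9 RPKM in the KO-labelled libraries, against 0 and 7.90 RPKM in the WT libraries, so they overlapped. Cpt1c, a brain-enriched member of the carnitine palmitoyltransferase family, had 15.4 and 14.2 RPKM of RNA in the KO-labelled libraries, against 0.0840 and 0.177 RPKM in the WT libraries. Cpt1c also met the RNA filter through the KO-labelled libraries only. Its footprints were 10 and 4 reads in the KO-labelled libraries, against 0 and 1 reads in the WT libraries.

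Plk3, a polo-like kinase of the stress response, ran the other way, with 3.84 and 3.66 RPKM of RNA in the KO-labelled libraries, against 21.8 and 15.6 RPKM in the WT libraries (-2.03, limma adjusted p = 0.000612). Dram1, a lysosomal membrane protein that promotes autophagy, had 5.21 and 5.49 RPKM of RNA in the KO-labelled libraries, against 13.1 and 15.0 RPKM in the WT libraries. Its footprints were 2 and 2 reads in the KO-labelled libraries, against 14 and 21 reads in the WT libraries.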
